A study of Homo sapiens with 12 samples.

Results

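The response to inhibition of phosphatidylserine synthase 1 was compared between the cell lines KYSE30 and U138MG, gene by gene, as the difference of the 2 treatment effects: the log2 change of PTDSS1i over DMSO in U138MG minus the same change in KYSE30. Genes were joined across both count tables by Ensembl identifier, which gave 30358 genes, and the 13250 genes with a mean of at least 10 counts in each of the 4 groups were tested. A further 2201 genes passed in both KYSE30 groups only and 1806 in both U138MG groups only, and were not tested for the difference. The difference was called for 2053 of the 13250 genes, at an adjusted p under 0.05 and an absolute log2 difference over 1. Each group held 3 libraries, 12 in all. Cells of either line, labelled wild type, received 100 nM of the PTDSS1 inhibitor DS55980254 (PTDSS1i) or its vehicle DMSO for 48 h, and poly-A RNA was sequenced. KYSE30 is a line from an esophageal squamous cell carcinoma and U138MG a line from a glioblastoma. The comparison asks which transcripts respond alike in both lines and which do not.

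PTDSS1 is an enzyme of the endoplasmic reticulum (ER) that makes phosphatidylserine by exchanging the head group of phosphatidylcholine for serine, while PTDSS2 starts from phosphatidylethanolamine and PISD turns phosphatidylserine into phosphatidylethanolamine in mitochondria. A disturbed ER membrane is known to set off the unfolded protein response, in which the kinase PERK raises translation of the transcription factor ATF4 and, downstream of it, transcription of DDIT3 (CHOP), while IRE1 splices the message of XBP1. Sterol-regulated SREBP2, the interferon-induced genes switched on by STAT2 and IRF9, the E2F factors that drive DNA replication genes and the ERK pathway with its DUSP and SPRY feedback inhibitors are other programs read well from transcript levels.

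All libraries of KYSE30 carry the label batch 1 and all of U138MG the label batch 2, the tables list different numbers of genes, and the sample labels give the same medium for both lines while the study's methods give different ones, so the line, the batch, the table and the medium cannot be told apart in any difference below. The names of the lines were checked against lineage markers, in mean CPM, the library-scaled unit of read counts, of the DMSO groups. Libraries labelled U138MG held keratins and epithelial adhesion genes at 1470 CPM for KRT5, 4860 for KRT15, 463 for CDH1, 248 for EPCAM and 276 for the squamous factor TP63, and little of the mesenchymal filament gene VIM at 0.206 CPM. Other members of the squamous list were low there, with KRT14 at 0.198, KRT6A at 0.488 and PKP1 at 7.65 CPM. GFAP, the glial filament gene, stood at 2.36 CPM. KYSE30 libraries held 514 CPM of CDH1, 280 of EPCAM, 200 of SFN, 98.2 of TP63 and 41.3 of KRT15, but only 0.0608 CPM of KRT5. Further members of the squamous list were low in KYSE30 as well, with KRT14 at 0.355, KRT6A at 5.22 and PKP1 at 0.0996 CPM. The markers summed over the 10 squamous genes lay between 7200 and 8020 CPM in the U138MG DMSO libraries and between 1140 and 1170 CPM in the KYSE30 DMSO libraries. The 8 glial markers found in the tables summed to between 448 and 458 CPM against between 611 and 660 CPM. Of these sums CD44 alone held 406 CPM in the U138MG and 534 CPM in the KYSE30 DMSO libraries, as means. The 8 mesenchymal markers summed to between 843 and 875 CPM, of which the matrix gene SPARC held 713, against between 111 and 162 CPM. Leukocyte markers summed to at most 0.757 CPM in any library. These values go against the glioblastoma label, and the second line is therefore called U138MG-labelled. KYSE30 keeps its label here, although several squamous keratins were nearly absent from it, and the identity of neither line was tested further. No label ties replicates to separate cultures, so each p-value measures the spread between these libraries, which may be technical. Totals lay between 18800932 and 26514658 counts.

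PTDSS1i changed transcripts in both lines. In KYSE30, PTDSS1i raised 678 genes (5.12% of those tested) and lowered 735 (5.55%), and in the U138MG-labelled libraries it raised 821 (6.2%) and lowered 1017 (7.68%). Of the 2720 genes called in at least 1 line, 471 were shared, which means called in the same direction in both: 245 rose (1.85%) and 226 fell (1.71%). A further 60 genes were called in both lines in opposite directions, 45 of them (0.34% of the genes tested) higher in KYSE30 and lower in U138MG-labelled cells and 15 (0.113%) the reverse. Genes called in 1 line with the difference called as well are termed KYSE30-only, which were 475 (3.58%) with 234 that rose (1.77%) and 241 that fell (1.82%), or U138MG-only, which were 809 (6.11%) with 319 that rose (2.41%) and 490 that fell (3.7%). Another 905 genes (6.83%) were called in 1 line without a called difference and stay unresolved, and 633 (4.78%) had a called difference with neither line called. The difference was called for 15.5% of the genes tested, with 904 genes (6.82%) more positive and 1149 (8.67%) more negative in U138MG-labelled cells. An adjusted p under 0.05 alone was reached by 8481 genes, or 64%. When the p-value was taken against a log2 difference of 1 rather than 0, 419 positive and 493 negative differences remained, and of the genes in each class 14 of 60 opposite, 268 of 471 shared, 180 of 475 KYSE30-only and 346 of 809 U138MG-only genes remained. Scaling by library size alone changed the KYSE30 split to 496 higher and 956 lower, the shared split to 181 and 302, and the split of KYSE30-only genes from 234 higher and 241 lower to 168 and 309. Upper-quartile scaling gave a shared split of 198 and 282. Exons of MCM2, ETV4, TRIM22, JPH1, EMP3, ERAP1, THBS1, TNC, OPTN, SLC6A9 and WARS1, among the genes below, overlap those of another gene in GENCODE v29, and since the sources used here do not give the use of strand in counting, their counts may hold reads of both.

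**Figure D1:**
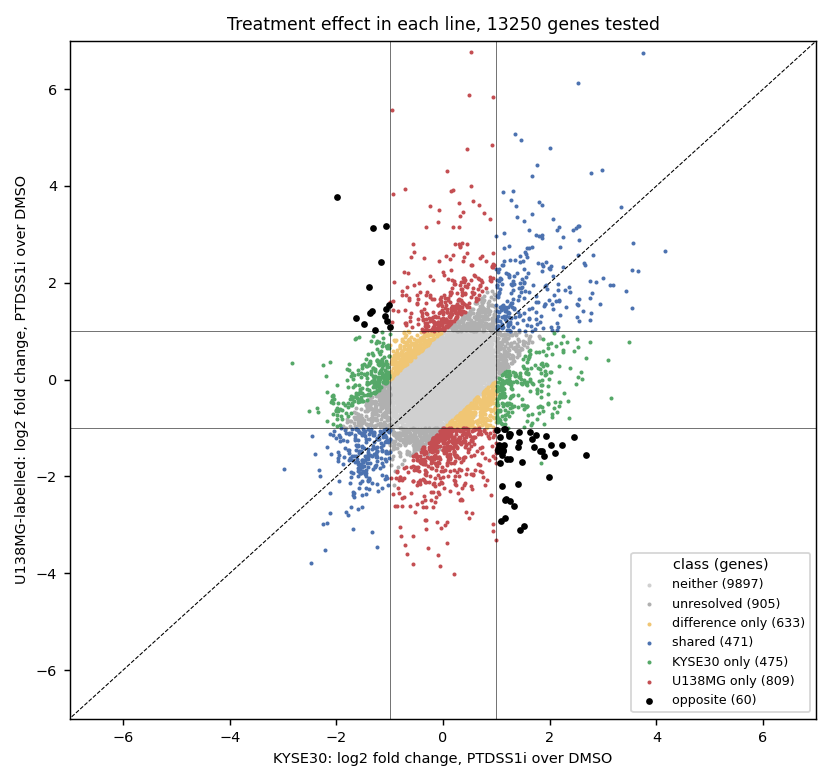
The log2 fold change of PTDSS1i over DMSO in KYSE30 (x axis) is plotted against that in the U138MG-labelled libraries (y axis) for each gene tested, coloured by class; the dashed line marks equal effects and thin lines mark a log2 fold change of 1 and -1. The 471 shared genes lie in the upper right and lower left corners and the 60 opposite genes in the other corners.

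Called in 1 line did not mean silent in the other. Of the 234 KYSE30-only genes that rose, 46 had an adjusted p under 0.05 with the same sign in U138MG-labelled cells, 80 had it with the opposite sign and 108 did not reach it. Among the 490 genes that fell in U138MG-labelled cells only, 84 had an adjusted p under 0.05 with the same sign in KYSE30, 107 with the opposite sign and 299 did not reach it. Long noncoding RNAs made up 21.0% of the U138MG-only class, 10.9% of the KYSE30-only class, 9.98% of the shared class and 8.52% of the genes called for nothing. The called differences also moved the order of the lines, which is in part a property of the contrast since the DMSO libraries enter both quantities: of the 904 genes with a positive difference, 316 stood higher in the U138MG-labelled line under DMSO and 699 under PTDSS1i, and of the 1149 with a negative one, 763 stood higher under DMSO and 299 under PTDSS1i.

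The 60 opposite genes held a block of interferon-stimulated genes. These genes encode proteins that block virus entry, replication and spread, and their promoters carry the interferon-stimulated response element (ISRE) bound by STAT2 and IRF9. IFI44L, an interferon-induced gene of the IFI44 family (chr1:78619922-78646145, plus strand, GENCODE v29 on GRCh38), stood at 6.14, 19.8 and 13.8 CPM in the KYSE30 DMSO libraries and at 29.1, 48.1 and 36.8 CPM under PTDSS1i. In the U138MG-labelled libraries it went from 20.5, 22.8 and 21.1 CPM to 2.78, 2.82 and 2.32 CPM. The treatments did not overlap in either line, and they parted in opposite directions: the log2 change was 1.52 ± 0.33 (SE) in KYSE30 and -3.03 ± 0.44 in U138MG-labelled cells, with a difference of -4.55 ± 0.55 (adjusted p = 8.77e-05, by the quasi-likelihood test of edgeR, Benjamini-Hochberg adjusted, as for each adjusted p below). BST2 (tetherin), which holds budding virus at the cell surface, measured 4.74, 17.2 and 11.2 CPM in KYSE30 with DMSO and 32.7, 48.6 and 42 CPM with PTDSS1i. Its U138MG-labelled values were 33.6, 37.7 and 30.1 CPM and 11.9, 11 and 11.1 CPM, a difference of -3.48 ± 0.47 (adjusted p = 0.000177). Again all 3 treated libraries lay above the controls in KYSE30 and below them in the other line. The rule for naming genes required no overlap in each line where a gene was called, so for named genes it was fixed in advance. Over all genes tested, the treatments did not overlap for 69.9% in KYSE30 and for 74.7% in U138MG-labelled cells.

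OAS2, a sensor of double-stranded RNA that activates RNase L, rose from 26.5, 49.5 and 46 CPM to 156, 178 and 166 CPM in KYSE30 and fell from 10.6, 11 and 10.2 CPM to 3.70, 4.62 and 4.13 CPM in the U138MG-labelled libraries, a difference of -3.39 ± 0.37 (adjusted p = 3.98e-05). For TRIM22, a ubiquitin ligase that restricts retroviruses, the KYSE30 values were 3.19, 6.99 and 5.67 CPM and then 12.3, 15.3 and 14.3 CPM, against 14, 17.9 and 12.9 CPM and then 3.13, 3.56 and 3.37 CPM in the other line. In both genes no treated library overlapped a control. IFIT1, which binds RNA without a host cap, together with SAMD9L and HERC6 made up the 7 interferon-stimulated genes of the opposite class, with differences of -2.89, -2.79 and -2.37. With the p-values taken against a log2 change of 1, none of these 7 stayed opposite, and SAMD9L did not without the first KYSE30 DMSO library, without the second treated KYSE30 library or with scaling by library size alone. That first DMSO library was the lowest of its group for all 4 genes given by library.

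The ISRE was searched as GAAANNGAAA on both strands in the 250 bases before the transcription start of each gene tested, in RefSeq promoters of GRCh38.p14, which were found for 10286 of the 13250 genes. It was present in 2.29% of those promoters, in 20 of the 40 promoters found for the interferon list, and in 3 of the 29 found for opposite genes that fell in U138MG-labelled cells. Those 3 are shown because their genes moved in opposite directions in the lines. Each stretch of 80 bases lies upstream of RefSeq's start site, which for IFI44L is inside the gene as GENCODE v29 bounds it, and is written on the strand of the gene, with matches in capitals. The BST2 stretch is chr19:17405710-17405789, minus strand, that of IFI44L is chr1:78620340-78620419, plus strand, and that of IFIT1 is chr10:89392485-89392564, plus strand.
BST2: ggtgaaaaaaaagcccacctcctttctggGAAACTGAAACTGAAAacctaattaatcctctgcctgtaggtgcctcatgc
IFI44L: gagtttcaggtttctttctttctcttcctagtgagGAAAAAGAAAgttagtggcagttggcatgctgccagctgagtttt
IFIT1: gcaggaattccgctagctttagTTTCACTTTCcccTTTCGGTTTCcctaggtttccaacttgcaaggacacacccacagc
In BST2 the matches overlap each other, and in IFIT1 both matches are on the opposite strand. A match says only that these letters are present.

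Beyond the opposite genes, the whole interferon list leaned one way. The difference was negative and called for 34 of 54 members, against 15.5% of all genes, and positive for none of them, also at an unadjusted p under 0.05. The call was shared and upward for 3 members (ISG20, IFIT2 and OASL), 20 rose in KYSE30 only, and 2 (GBP2 and UBA7) fell in U138MG-labelled cells only. The median log2 change was 1.15 in KYSE30 and -0.0873 in U138MG-labelled cells, and the median difference was -1.26, against -0.00859 over all genes tested. ISG15, a ubiquitin-like protein, had log2 fold changes of 2.21 in KYSE30 and 0.75 in U138MG-labelled cells, IFI6 of 2.08 and -0.59, and the RNA sensor RIGI of 1.34 and 0.08. The transcription factor gene IRF9, at 0.43 and 0.42, had no called difference. Summed over the 54 genes the level was 2850, 3690 and 3350 CPM in the KYSE30 DMSO libraries and 7150, 7910 and 7400 CPM under PTDSS1i. In the U138MG-labelled libraries the sum lay between 3000 and 3050 CPM and between 3090 and 3100 CPM. The median difference without the first KYSE30 DMSO library was -1.14, with 32 genes called, and with the p-value taken against a log2 difference of 1, 23 were called. MHC class I genes, many of which interferon also raises, gave a negative difference for 3 of 18 (16.7%, near the 15.5% of all genes), among them the peptide-trimming enzyme ERAP1 at -1.32 ± 0.10.

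Replication-dependent histone genes stood beside them in the opposite class. H4C8, a histone H4 gene, rose from 7.03, 6.58 and 6.27 CPM to 29, 24.4 and 25.6 CPM in KYSE30. In U138MG-labelled cells it fell from 9.21, 6.52 and 9.38 CPM to 1.5, 2.64 and 2.08 CPM, which gave a difference of -4.0 ± 0.21 (adjusted p = 4.61e-14) with no overlap of treatments in either line. H1-2, H2AC6 and H2BC4 were opposite as well, with differences of -2.79, -2.40 and -2.72. Of 22 histone genes tested, a set put together by gene symbol after values had been seen, 8 rose and 0 fell in KYSE30, while 0 rose and 13 fell in U138MG-labelled cells, and 20 differences were negative and 0 positive. Over all genes tested, 5.12% rose in KYSE30, 7.68% fell in U138MG-labelled cells and 8.67% had a negative called difference. Since the set was chosen with its values known, these counts are not a test of the family. The medians were 0.616 and -1.28. Most such messages end in a stem-loop and carry no poly-A tail, so poly-A libraries see only their tailed fraction, and reads may be split among near-identical copies.

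The remaining opposite genes that rose in KYSE30 and fell in U138MG-labelled cells were of mixed function. MUC16, the mucin that carries the CA125 epitope, went from 47.3, 54.9 and 45.3 CPM to 172, 176 and 169.7 CPM in KYSE30 and from 28.5, 33.6 and 32.6 CPM to 11.4, 11.7 and 11 CPM in the other line, a difference of -3.29 ± 0.10 (adjusted p = 1.25e-19). ATP6V1C2, a subunit of the proton-pumping V-ATPase whose exons overlap those of PDIA6, measured 4.59, 5.50 and 5.63 CPM and then 20.7, 24.5 and 21.9 CPM in KYSE30, and 19.5, 17.5 and 19.4 CPM and then 6.13, 7.40 and 6.21 CPM in U138MG-labelled cells. In both, the treated libraries stood clear of the controls on opposite sides. IQCN differed by -4.24 ± 0.23, LASP1NB by -3.19 ± 0.35 and N4BP2L1 by -3.32 ± 0.31. MXD4, a MYC antagonist, differed by -3.11, the hypoxia-linked noncoding RNA MIR210HG by -3.58, the prostaglandin-degrading enzyme HPGD by -4.02 and the mitochondrial acetyl-CoA synthetase ACSS1 by -4.0.

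Genes of the reverse kind, lower in KYSE30 and higher in U138MG-labelled cells, were fewer and included matrix genes. CCN5, a secreted matricellular protein, fell from 3.09, 3.14 and 3.33 CPM to 0.826, 0.480 and 1.03 CPM in KYSE30, where its level was low, and rose from 12.7, 17.2 and 10.8 CPM to 194, 199 and 168 CPM in the other line, a difference of 5.77 ± 0.40 (adjusted p = 1.86e-07). COL4A1, a chain of basement membrane collagen, went from 42.1, 37.1 and 39.2 CPM to 16.6, 17.1 and 19 CPM in KYSE30 and from 2.68, 3.79 and 2.33 CPM to 16, 15.6 and 15.9 CPM in U138MG-labelled cells. MMP2, a gelatinase, had 47.4, 54.9 and 49 CPM and then 18.7, 19.6 and 19.7 CPM, against 2.37, 2.69 and 2.43 CPM and then 10.4, 10.3 and 7.73 CPM. No treated library overlapped a control for these 3 genes in either line, as the rule for naming them required. MMP2 stayed opposite with the p-values taken against a log2 change of 1, while CCN5 and COL4A1 were then called in the U138MG-labelled line only. For COL4A1 and MMP2 the treated groups stood closer together than the controls did.

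MOCOS, which activates molybdenum enzymes, rose from 82.7, 72.5 and 77 CPM to 194, 213 and 211 CPM in U138MG-labelled cells and fell from 14, 12.5 and 12.7 CPM to 5.39, 5.18 and 5.02 CPM in KYSE30. BCAT1, the cytosolic branched-chain aminotransferase, was at 75.3, 101 and 101 CPM and then 31.1, 38.4 and 37.4 CPM in KYSE30 and at 31, 27.3 and 33.8 CPM and then 79.4, 81.8 and 77.8 CPM in the other line, so that the levels of the 2 lines changed places. The differences were 2.74 ± 0.11 and 2.75 ± 0.18. TCIM, JPH1 and HTR7 differed by 4.46, 2.90 and 2.65, the parathyroid hormone-like hormone PTHLH by 4.24 and the lysophosphatidylcholine transporter MFSD2A by 2.08. With the p-values taken against a log2 change of 1, TCIM, PTHLH, HPGD and ACSS1 were called in the U138MG-labelled line only and HTR7, MIR210HG and H2BC4 in KYSE30 only. PTHLH left the class without the first KYSE30 DMSO library, as HPGD did, ACSS1 without the first treated KYSE30 library and with scaling by library size alone, HTR7 without the first U138MG-labelled DMSO library, H2BC4 without the third treated U138MG-labelled library, where LASP1NB no longer passed the filter, and MFSD2A without any 1 of 7 libraries and with scaling by library size alone. In 58 of the 60 opposite genes the treatments did not overlap in either line, as they did not for 54.1% of all genes tested. Of the 45 that fell in U138MG-labelled cells, 28 were higher there than in KYSE30 under DMSO and 4 under PTDSS1i. The direction of this shift was fixed by the class, whose 45 genes were picked for rising in KYSE30 and falling in the other line. Over all genes tested, 49.9% were higher in U138MG-labelled cells under DMSO and 49.9% under PTDSS1i.

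**Figure D2:**
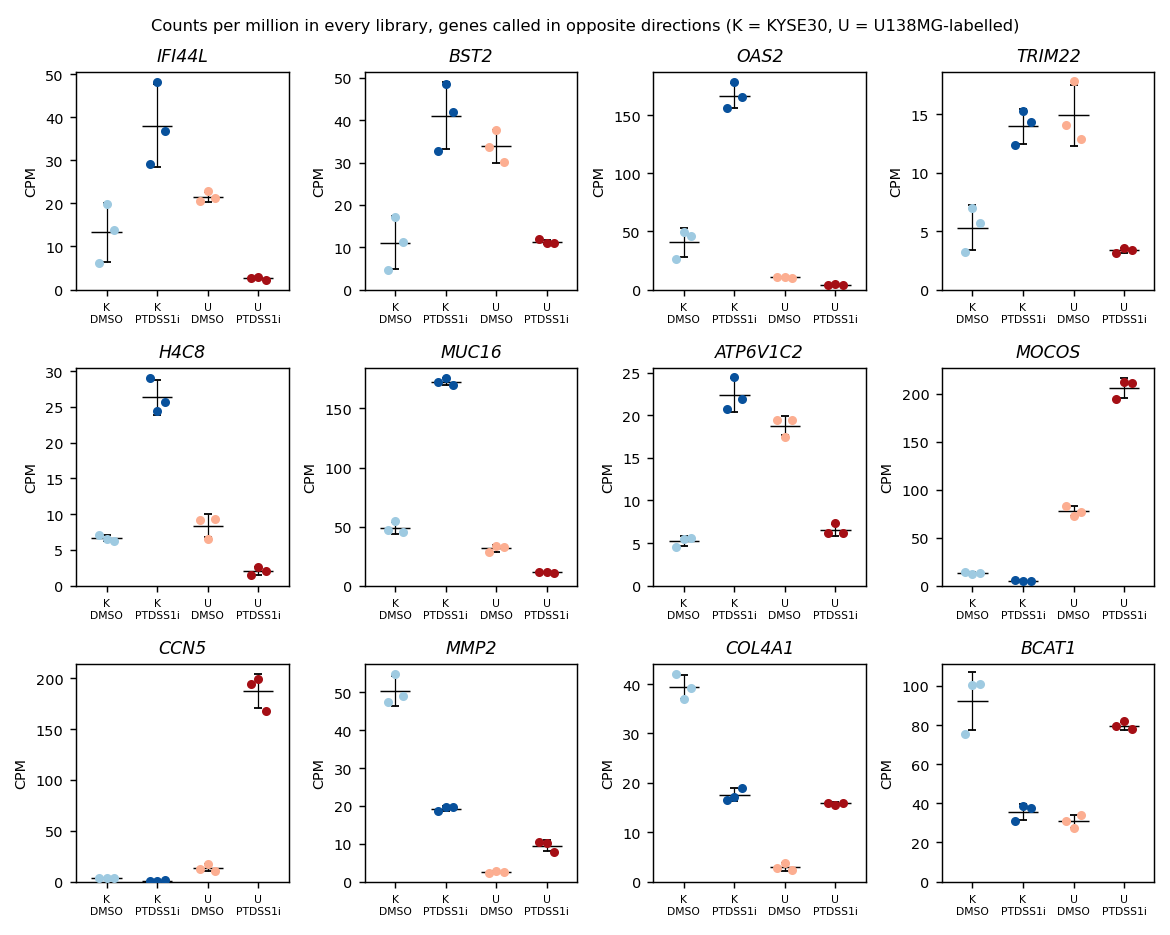
Each panel plots the CPM of 1 opposite gene in all 12 libraries (K, KYSE30; U, U138MG-labelled), with a point for each library, a line for the mean and a bar for the SD of 3 libraries. PTDSS1i points sit above the DMSO points in 1 line and below them in the other in every panel, as the rule for naming these genes required.

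Cell-cycle genes separated into those called lower in both lines and those called lower in KYSE30 alone, many of which fell by less in U138MG-labelled cells. DNA replication begins when MCM helicases are loaded at origins with the help of ORC, CDC6 and CDT1, under the control of E2F factors. Mitotic genes are switched on later, in part through FOXM1, and many carry the CHR element in their promoters. MCM5, a helicase subunit, fell from 185, 166 and 169 CPM to 36.7, 39.2 and 38.9 CPM in KYSE30 and measured 88.1, 85 and 91.7 CPM and then 67.8, 69.8 and 82.6 CPM in U138MG-labelled cells, a log2 change of -2.18 ± 0.06 against -0.26 ± 0.06 and a difference of 1.92 ± 0.09 (adjusted p = 1.59e-14). CDC6 fell from 94.2, 81.9 and 91.2 CPM to 30.3, 30.0 and 32.5 CPM in KYSE30, while its U138MG-labelled values were 35.2, 36 and 38.4 CPM and 40.7, 45 and 49.6 CPM. The treated KYSE30 libraries lay far below their controls, and those of the other line stood close to theirs, below them for MCM5 and above them for CDC6.

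Of 29 tested genes of origin licensing, 16 had a positive called difference and none a negative one (55.2%, against 15.5% of all genes). Of the 29, 15 fell in KYSE30 only and 1, RECQL4, fell in both. None rose or fell in U138MG-labelled cells alone, and the medians were -1.52 and -0.339. MCM2, which the study names, had log2 fold changes of -1.98 in KYSE30 and -0.48 in U138MG-labelled cells, with a difference of 1.5 ± 0.07 (adjusted p = 3.76e-16), MCM6 of -2.08 and -0.34, MCM10 of -1.98 and -0.11, and ORC6, of the origin recognition complex, of -1.65 and -0.10. Summed, these 29 genes held between 3280 and 3560 CPM in KYSE30 controls and between 1160 and 1180 CPM under PTDSS1i, against between 1590 and 1690 CPM and between 1220 and 1360 CPM in U138MG-labelled cells, so that the lines lay further apart under DMSO than under PTDSS1i. Among replication fork and nucleotide supply genes 15 of 41 had a positive called difference (36.6% called, against 15.5% of all genes). Of the 41, 15 fell in KYSE30 only, 3 fell in both and 15 were unresolved. Without the fold limit 33 were lower in U138MG-labelled cells at an adjusted p under 0.05. Among double-strand break and Fanconi repair genes 11 of 52 had a positive called difference (21.2% called). Of the 52, 11 fell in KYSE30 only, 7 fell in both and 12 were unresolved, and 37 were lower in U138MG-labelled cells without the fold limit. PCNA, the sliding clamp, had log2 fold changes of -1.60 and -0.47, a difference of 1.13 ± 0.09 that was not called with the p-value taken against a log2 difference of 1 (adjusted p = 0.239).

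Regulators of the cycle differed among themselves. E2F1 fell from 78, 72.3 and 76.6 CPM to 26.4, 24.1 and 24.8 CPM in KYSE30 and stood at 31.6, 32.5 and 33.7 CPM and then 33.3, 31.5 and 40.3 CPM in U138MG-labelled cells. E2F7, a repressor of the same family, fell from 28.6, 27.9 and 28.2 CPM to 9.33, 8.80 and 8.84 CPM in KYSE30 and measured 24.5, 25.3 and 26.5 CPM and then 45.6, 45.7 and 45.1 CPM in the other line, with a log2 change of 0.84 ± 0.06 that was under the fold limit, and a difference of 2.49 ± 0.09 (adjusted p = 4.56e-18). The differences were 1.70 for the phosphatase CDC25A and 1.48 for cyclin E1 (CCNE1). By contrast E2F8 fell in both lines, by 1.94 and 2.09 on the log2 scale. Over the 38 cyclins, their kinases and inhibitors, 13 fell in both lines. Of their differences 6 were positive and 3 negative (23.7% called, against 15.5% of all genes).

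An E2F site was searched as TTTCCCGC or TTTGGCGC on both strands of the same 250 bases. It was present in 3.14% of all promoters, in 24.0% of the 25 found for the origin licensing list, in 10.2% of the 186 found for genes that fell in KYSE30 only and in 6.29% of the 175 found for genes that fell in both lines. The windows of MCM6 (chr2:135876490-135876569, minus strand) and E2F1 (chr20:33686386-33686465, minus strand) are shown as members that fell in KYSE30 only, with a match in capitals.
MCM6: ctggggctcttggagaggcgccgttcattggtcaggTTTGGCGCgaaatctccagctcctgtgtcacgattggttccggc
E2F1: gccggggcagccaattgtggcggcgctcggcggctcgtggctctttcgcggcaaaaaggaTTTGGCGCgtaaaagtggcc
The CHR element, searched as TTTGAA on both strands, was present in 8.24% of all promoters, in 30.3% of those of genes that fell in both lines, in 8.06% of those of genes that fell in KYSE30 only and in 50.9% of the 55 found for the mitotic list. The window of ASPM (chr1:197146740-197146819, minus strand) is shown for the shared class, with the match on the opposite strand.
ASPM: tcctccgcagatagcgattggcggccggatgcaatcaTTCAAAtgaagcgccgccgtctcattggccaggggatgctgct

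Most mitotic genes fell in both lines. Of 64 tested genes of the spindle, kinetochore and cytokinesis, 54 were shared and lower, and the difference was called for 2, GTSE1 and NUSAP1, or 3.12% against 15.5% of all genes, and that of GTSE1 not with the p-value taken against a log2 difference of 1. The medians were -1.51 in KYSE30 and -1.61 in U138MG-labelled cells. CENPE, a kinetochore motor, fell from 8.08, 13.4 and 13.6 CPM to 1.60, 3.79 and 2.15 CPM in KYSE30 and from 27, 27.5 and 30.0 CPM to 4.85, 3.14 and 2.72 CPM in U138MG-labelled cells, with a difference of -0.74 ± 0.45 (adjusted p = 0.183). ASPM, which focuses spindle poles, fell from 51.1, 80.2 and 82.1 CPM to 11, 24.7 and 14.4 CPM and from 96.5, 96.4 and 103 CPM to 17.9, 14.7 and 11.1 CPM. The treatments were clear of each other in both lines for both genes, and the differences did not pass the test. CDK1, the kinase that starts mitosis, fell by 1.45 in KYSE30 and 1.30 in U138MG-labelled cells on the log2 scale, a difference of 0.15 ± 0.10 (adjusted p = 0.171). NUSAP1 was listed at 0.599, 0.36 and 0.736 CPM in the KYSE30 DMSO libraries against 104, 94.4 and 102 CPM in those labelled U138MG, where it fell by 1.68 on the log2 scale.

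Of 33 genes that respond to or feed back on ERK signaling, 16 had a positive difference, 2 (EGFR and KLF6) a negative one and 15 none that was called. DUSP6, the phosphatase that switches off ERK (chr12:89347232-89353271, minus strand), measured 0.772, 1.32 and 1.01 CPM under DMSO and 57.7, 62.3 and 59.9 CPM under PTDSS1i in U138MG-labelled cells, against 56.4, 63.8 and 59.3 CPM and 115, 112 and 117 CPM in KYSE30. The log2 change was 5.83 ± 0.10 against 0.94 ± 0.05, a difference of 4.89 ± 0.13 (adjusted p = 9.10e-21). FOSL1, an AP-1 subunit, rose from 1.34, 0.970 and 1.83 CPM to 82, 84 and 78 CPM in U138MG-labelled cells and stood at 75.3, 43.2 and 49.9 CPM and then 78.4, 78.8 and 78.4 CPM in KYSE30. In treated U138MG-labelled cells both genes stood at or above the level that KYSE30 had under DMSO.

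ETV4, an ETS factor, rose from 4.27, 3.48 and 5.81 CPM to 69.8, 68.4 and 66.4 CPM and stood at 69.3, 67.1 and 70.4 CPM and then 80.6, 77.6 and 77.6 CPM in KYSE30. EREG, a ligand of the EGF receptor, rose from 3.09, 3.17 and 4.30 CPM to 53.5, 49.7 and 55 CPM against 76.9, 57.6 and 79.5 CPM and then 76.1, 81 and 80.6 CPM. HBEGF, another such ligand, rose in both lines, by 1.46 in KYSE30 and by 4.95 in U138MG-labelled cells on the log2 scale, with a difference of 3.49 ± 0.19. The receptor gene EGFR itself fell by 1.40 in U138MG-labelled cells and had a log2 fold change of 0.18 in KYSE30. Of the 33 members tested, 16 had a positive and 2 a negative called difference (54.5% together, against 15.5%), 12 rose in U138MG-labelled cells only, and 7 rose in both lines. The medians were 0.584 and 1.44. Under DMSO 5 of the 33 stood higher in U138MG-labelled cells than in KYSE30, and under PTDSS1i 11. AP-1 sites, searched as TGANTCA on both strands, were present in 3.74% of all promoters, in 11.1% of those of genes that rose in both lines, in 7.32% of those of genes that rose in U138MG-labelled cells only, in 7.88% of those of genes that rose in KYSE30 only and in 1 of the 26 found for the ERK list.

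Some secreted inflammatory factors rose in 1 line and others in both. IL1A, an alarmin cytokine, rose from 1.24, 0.926 and 1.14 CPM to 119, 115 and 124 CPM in U138MG-labelled cells and was listed at 0.549, 0.514 and 0.649 CPM and then 0.729, 1.01 and 0.773 CPM in KYSE30, a difference of 6.23 ± 0.37 (adjusted p = 6.29e-14). CXCL8, the neutrophil chemokine interleukin-8, rose in both lines, from 0.998, 1.44 and 1.34 CPM to 7.67, 7.42 and 6.87 CPM in KYSE30 and from 0.823, 1.01 and 0.503 CPM to 56.1, 52.2 and 57.3 CPM in U138MG-labelled cells. LIF, a cytokine of the interleukin-6 family, also rose in both, with a difference of 2.77 ± 0.14. Controls of all 3 genes lay below every treated library of the line in which the gene was called. Of 16 cytokine and chemokine genes tested, 6 had a positive and 1 a negative difference (43.8%, against 15.5% of all genes). Of the 16, 7 rose in both lines. IL32 rose by 2.56 and 3.17, without a called difference.

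**Figure D3:**
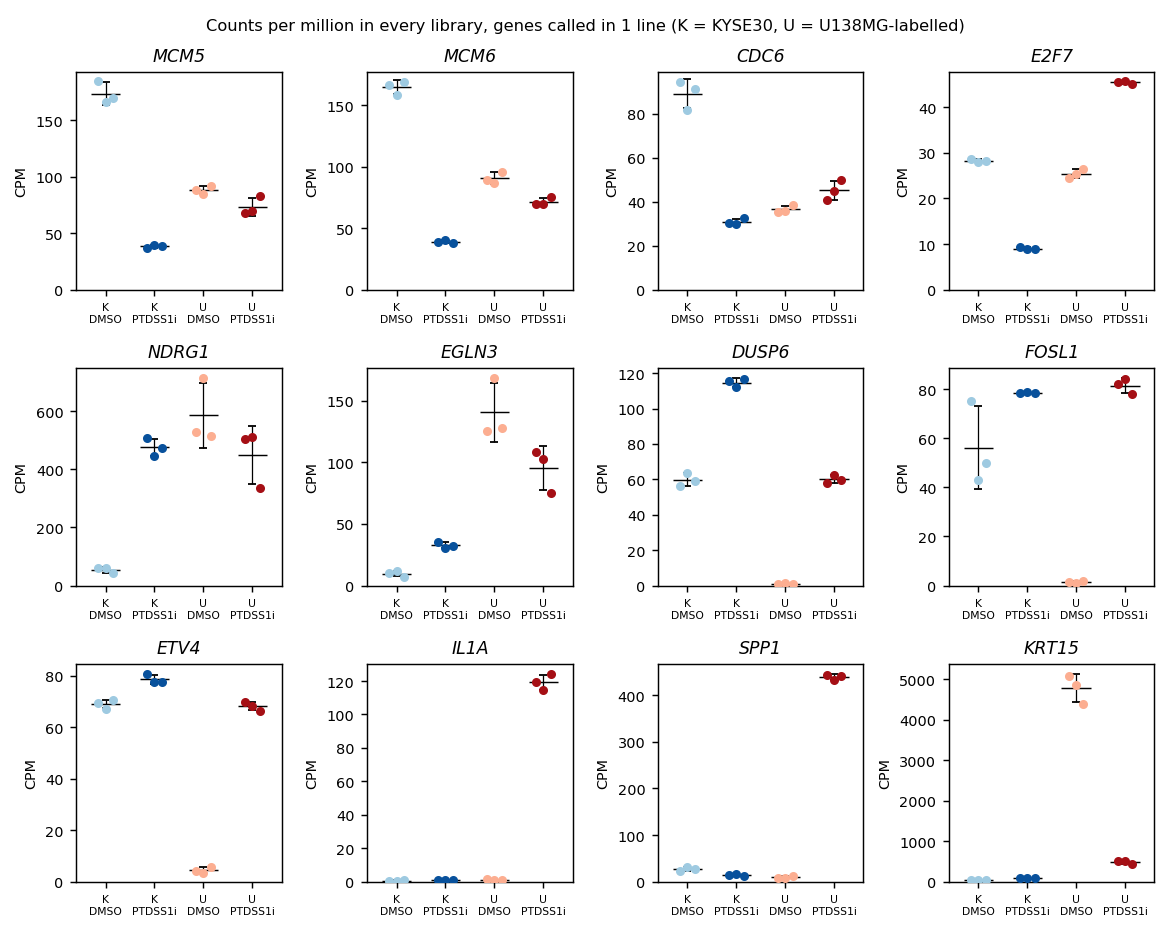
Each panel plots the CPM of 1 gene called in a single line in all 12 libraries (K, KYSE30; U, U138MG-labelled), with a point for each library, a line for the mean and a bar for the SD of 3 libraries. DUSP6, FOSL1, ETV4, IL1A and SPP1 rise from near 0 in the U138MG-labelled libraries, and MCM5, MCM6, CDC6 and E2F7 fall in KYSE30.

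Matrix genes with a called difference went in both directions, more of them the way of CCN5 and COL4A1. Of 50 genes of the extracellular matrix, integrins and proteases, 20 had a positive and 3 a negative called difference (46.0% together, against 15.5% of all genes). SPP1 (osteopontin), a secreted integrin ligand, rose from 7.51, 8.37 and 11.7 CPM to 443, 433 and 443 CPM in U138MG-labelled cells and measured 22.1, 31.1 and 27.1 CPM and then 13.9, 15.3 and 12.6 CPM in KYSE30, where the log2 change of -0.95 ± 0.15 was under the fold limit. The difference, 6.52 ± 0.21 (adjusted p = 1.04e-09), was the largest among the genes named here. TNC (tenascin-C), a matrix glycoprotein, rose from 0.926, 1.28 and 1.74 CPM to 20.2, 18.9 and 18.4 CPM and measured 128, 128 and 124 CPM and then 69.2, 62.2 and 66.8 CPM in KYSE30. The lines stood closer in TNC under PTDSS1i than under DMSO, and in SPP1 their order reversed. THBS1 (thrombospondin-1), the protease ADAMTS1 and the YAP target CCN2 were called in KYSE30 only, where they fell by 1.57, 2.84 and 1.25 on the log2 scale. In U138MG-labelled cells they rose by 0.88, 0.35 and 0.76, under the fold limit but each at an adjusted p under 0.05. The integrin ITGA1 and the protease inhibitor TIMP1 were called in U138MG-labelled cells only, with log2 changes of 1.84 and 2.45 against -0.76 and 0.37 in KYSE30. PLAU and SERPINE2 of the plasminogen system rose in both lines with differences of 1.52 and 2.21. LAMB3, a laminin chain of the epithelial basement membrane, had a difference of -1.42.

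Most cholesterol genes rose in both lines, and 11 of the 12 called differences lay toward KYSE30. HMGCS1, which starts the mevalonate pathway, rose by 3.55 in KYSE30 and by 2.27 in U138MG-labelled cells on the log2 scale, a difference of -1.28 ± 0.08, and SQLE, which makes squalene epoxide, by 2.79 and 1.78. Of 31 genes tested, 16 rose in both lines and 6 in KYSE30 only, and 11 differences were negative and 1 positive (38.7% called, against 15.5% of all genes). The medians were 2.0 and 1.03. Summed over the list the level lay between 4240 and 5010 CPM in KYSE30 controls and between 6760 and 7150 CPM in U138MG-labelled controls, and between 18500 and 19500 CPM and between 19700 and 20400 CPM under PTDSS1i. The reductase gene DHCR7, with log2 fold changes of 1.95 and 1.87, had no called difference.

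Among hypoxia-inducible genes, more of the called differences lay toward KYSE30 than toward the other line. NDRG1 rose from 58.9, 61.9 and 41.7 CPM to 506, 446 and 474 CPM in KYSE30 and measured 526, 714 and 515 CPM and then 503, 512 and 334 CPM in U138MG-labelled cells, where every treated library lay below the controls without a called change. The difference was -3.52 ± 0.31 (adjusted p = 9.52e-06). EGLN3, a prolyl hydroxylase that marks HIF for degradation, had 9.83, 11.8 and 7.31 CPM and then 35.6, 30.7 and 32.3 CPM in KYSE30 and 125, 168 and 128 CPM and then 108, 103 and 75.2 CPM in the other line. Of 35 glycolysis and hypoxia genes, 13 had a negative and 3 a positive called difference (45.7% together, against 15.5% of all genes). Of the 35, 8 rose in KYSE30 only and 4 in both lines. VEGFA, the vascular growth factor, rose in both, by 2.19 and 2.75, and HIF1A rose in U138MG-labelled cells only, by 1.52. Autophagy genes gave 8 negative and 0 positive differences among 50 (16%, near the 15.5% of all genes). They included the mitophagy receptor BNIP3 at -2.27, the receptor OPTN at -1.96, TP53INP1 at -3.14 and TFEB, the master factor of lysosome genes, at -1.82. ATG9B, which the study names, rose in both lines by 2.64 and 2.41 with no called difference. It shares exons with NOS3 in GENCODE v29, and the use of strand in counting is not given in the sources used here.

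Of 27 genes of the ATF4 and CHOP branch of ER stress, 9 rose in both lines, and 8 differences were positive and 2, KLHL24 and CREBRF, negative (37.0% called, against 15.5% of all genes). DDIT3 (CHOP), the proapoptotic factor of the response, went from 5.24, 4.94 and 4.93 CPM to 20.4, 21.6 and 21.1 CPM in KYSE30 and from 6.79, 5.07 and 5.40 CPM to 57, 57 and 58.1 CPM in U138MG-labelled cells. All treated libraries lay above all controls, and the difference of 1.26 ± 0.13 was called (adjusted p = 4.86e-09) but not with the p-value taken against a log2 difference of 1 (adjusted p = 0.0949). DDIT3 exons overlap those of MARS1 and MBD6. GDF15, a stress hormone of the TGF-beta family, rose from 68.4, 68.6 and 62.8 CPM to 996, 876 and 806 CPM in KYSE30 and from 6.54, 6.30 and 7.87 CPM to 746, 726 and 767 CPM in the other line, a difference of 3.01 ± 0.12 (adjusted p = 1.38e-13). TRIB3, which restrains ATF4 and CHOP, rose from 83.2, 75 and 71.4 CPM to 244, 240.3 and 240.1 CPM and from 17.3, 16.4 and 15.6 CPM to 170.3, 179.9 and 174 CPM. In both genes the U138MG-labelled line began lower and the ratio between the lines was smaller under PTDSS1i than under DMSO.

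In that list 14 of the 27 genes rose in KYSE30 and 20 in U138MG-labelled cells. The medians were 1.0 and 1.41. ATF4 itself had a log2 fold change of 1.09 ± 0.04 in KYSE30 and of 0.93 ± 0.04 in the other line, below the fold limit there, with a difference of -0.16 ± 0.06. XBP1 rose in both by 1.04 and 1.78 and HERPUD1, an ER membrane component of protein degradation, by 1.51 and 1.99, without a called difference. EIF4EBP1, an inhibitor of translation, rose in U138MG-labelled cells only, by 1.61 against 0.03 in KYSE30. ATF3 rose in both lines, by 2.17 and 3.16. A C/EBP-ATF composite site, searched as TGATGNAA on both strands, was present in 1.25% of all promoters, in 4.44% of those of genes that rose in both lines and in 5.28% of those of genes that rose in U138MG-labelled cells only. The ATF3 window (chr1:212565180-212565259, plus strand) is shown as a member that rose in both lines.
ATF3: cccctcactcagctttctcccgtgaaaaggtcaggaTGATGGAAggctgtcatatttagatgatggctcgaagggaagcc

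Of 20 cytosolic aminoacyl-tRNA synthetases, which charge tRNAs with amino acids, 7 had a positive difference and 0 a negative one. That was 35.0% called, against 15.5% of all genes, and 5 rose in U138MG-labelled cells only. WARS1, the enzyme for tryptophan, rose from 87.9, 80.2 and 90.2 CPM to 334, 339 and 347 CPM there and measured 42.7, 36.7 and 39.8 CPM and then 41.7, 50.7 and 46.4 CPM in KYSE30. FARSB fell in KYSE30 only, by 1.36. Of 58 ER chaperone and degradation genes 8 differences were positive and 0 negative, a share of 13.8% near that of all genes, and 6 rose in U138MG-labelled cells only, among them the IRE1 gene ERN1 by 2.16 and the chaperone HYOU1 by 1.29, whose difference of 1.17 was not called with the p-value taken against a log2 difference of 1 (adjusted p = 0.0735). The medians were 0.165 and 0.572. Serine, one-carbon, proline and asparagine synthesis gave 2 positive and 1 negative difference among 20, COPII coat genes 1 and 1 among 26, amino acid transporters 0 and 1 among 20, with SLC6A9, a glycine transporter, at -1.84, and lysosomal genes 2 and 2 among 51, shares between 5.0% and 15% that did not exceed the 15.5% of all genes. The cathepsin gene CTSL rose from 128, 128 and 123 CPM to 1122, 1114 and 1151 CPM in U138MG-labelled cells and measured 45.3, 48.1 and 48.4 CPM and then 60.1, 56.1 and 58.3 CPM in KYSE30. NRF2 targets gave 5 positive and 2 negative differences among 30 (23.3%, against 15.5% of all genes). Among them the subunits of glutamate-cysteine ligase parted: GCLM had a difference of 2.45 ± 0.08 and GCLC of -1.96 ± 0.07.

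The drug target PTDSS1, PTDSS2 and PISD had no called difference. PTDSS1 measured 181, 155 and 168 CPM and then 167, 161 and 170.4 CPM in KYSE30, and 99.5, 93.4 and 94.5 CPM and then 70.6, 69.2 and 74.7 CPM in U138MG-labelled cells, a difference of -0.41 ± 0.07 that was under the fold limit (adjusted p = 1.85e-05). PTDSS2 stood at 50.3, 52.6 and 50.2 CPM in KYSE30 controls and at 10.8, 11.6 and 12.9 CPM in U138MG-labelled controls, with a difference of -0.23 ± 0.10 in the treatment effect (adjusted p = 0.0539), and PISD had one of 0.28 ± 0.08. Of 31 phospholipid synthesis genes 4 differences were positive and 1 negative (16.1%, near the 15.5% of all genes), among them PEMT, which makes phosphatidylcholine from phosphatidylethanolamine, at 1.17 ± 0.10, not called with the p-value taken against a log2 difference of 1, and the largest in GPCPD1, which cleaves glycerophosphocholine, at 1.96 ± 0.17. In 37 fatty acid and triglyceride genes the counts were 4 and 2 (16.2%), also near the share of all genes, with the acyltransferase GPAT3 at 2.87, the elongase ELOVL6 at 2.23 and the carboxylase ACACB at 2.49.

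Genes of epithelial identity also differed. KRT15, a basal keratin, fell from 5068, 4855 and 4396 CPM to 506, 511 and 435 CPM in U138MG-labelled cells and measured 42.9, 41.4 and 37.6 CPM and then 85.6, 80.3 and 77.4 CPM in KYSE30, a difference of -4.30 ± 0.10 (adjusted p = 4.33e-18). KRT80 rose in the same cells from 5.35, 6.66 and 6.96 CPM to 57.8, 57.1 and 54.1 CPM, and involucrin (IVL), a protein of the cornified envelope, from 1.85, 1.94 and 1.97 CPM to 15.5, 18.6 and 17.3 CPM, against 29.9, 31.4 and 32.4 CPM and then 24.8, 25.1 and 25.6 CPM in KYSE30. The 10 squamous markers, scaled by library total alone, summed to between 2830 and 2980 CPM in the treated U138MG-labelled libraries, below the controls given above. In the treated KYSE30 libraries they summed to between 1700 and 1710 CPM, above the KYSE30 controls. Of 11 keratins 2 differences were positive and 4 negative (54.5%, against 15.5% of all genes). Of 28 squamous differentiation and desmosome genes 7 were positive and 5 negative (42.9%). DLX3, a factor of epidermal differentiation, and TP73, of the p53 family, fell in both lines with differences of -2.21 and -1.80, and the Notch ligand DLL1 fell in U138MG-labelled cells only, by 3.22. In Notch and YAP targets the counts were 5 and 4 among 27, in p53 targets 4 and 2 among 30, and in the BCL2 family, death receptors and caspases 2 and 3 among 40 (12.5%), where BIRC3, an inhibitor of apoptosis, rose in KYSE30 only by 2.53.

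The largest shared changes without a called difference were found in genes of several functions. ACSS2, the cytosolic acetyl-CoA synthetase, rose from 52.9, 49 and 50.1 CPM to 596, 591 and 596 CPM in KYSE30 and from 73.1, 69.9 and 74.3 CPM to 513, 509 and 516 CPM in U138MG-labelled cells, a log2 difference of -0.73 ± 0.06. SDCBP2 (syntenin-2) rose by 3.35 and 3.57 on the log2 scale, EMP3 by 2.53 and 2.57, and the noncoding RNAs IGFL2-AS1 by 2.82 and 2.57 and LOC124903002 by 2.54 and 2.89. Among those that fell, CENPF of the kinetochore had a difference of -0.78 ± 0.45, the recombination gene RDM1 of -0.22 ± 0.33 and MNS1, a cilium protein, of 0.32 ± 0.29. The shared genes held 76 with a called difference: among those that rose 45 rose further in U138MG-labelled cells and 18 further in KYSE30, and among those that fell the counts were 11 and 2. TM4SF19, a tetraspan membrane protein, rose by 1.35 in KYSE30 and by 5.07 in U138MG-labelled cells.

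Other named genes had large one-line changes. MN1, a transcriptional coregulator, rose from 4.59, 3.70 and 3.68 CPM to 17.5, 14.3 and 12.5 CPM in KYSE30 and measured 5.76, 5.77 and 5.49 CPM and then 3.22, 3.19 and 2.60 CPM in the other line. H2AC18, a histone gene, rose in KYSE30 by 1.83, but its U138MG-labelled values under PTDSS1i scattered from 0 to 6.21 CPM, and its difference was not called with the p-value taken against a log2 difference of 1 (adjusted p = 0.0621). IFI44, already counted in the interferon list above, and the noncoding RNA GAS6-AS1 rose in KYSE30 only with differences of -2.81 and -2.79. The sulfatase gene ARSG, whose exons overlap those of WIPI1, and RFLNB fell there only with differences of 2.54 and 2.48.

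In U138MG-labelled cells the potassium channel gene KCNK15 rose from 0.669, 0.617 and 0.915 CPM to 12.6, 8.69 and 12.8 CPM against 1.70, 1.34 and 1.43 CPM and then 1.31, 1.07 and 0.386 CPM in KYSE30. PRODH, the enzyme that starts proline breakdown, fell from 39.6, 45 and 40.3 CPM to 4.14, 4.07 and 3.77 CPM against 4.69, 3.96 and 3.29 CPM and then 4.42, 4.00 and 4.08 CPM. The serine protease gene TMPRSS11E, the actin-bundling ESPN, the homeobox gene DLX5 and the noncoding RNA LINC02593 fell there only, with differences of -4.05, -3.79, -3.53 and -4.23. Exons of ESPN and PRODH overlap those of TNFRSF25 and DGCR6.

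None of 72 nuclear-encoded respiratory chain subunits and none of 78 cytosolic ribosomal protein genes was called for the treatment in either line or for the difference in edgeR's test with the fold limit. Smaller treatment effects did reach an adjusted p under 0.05. Of the ribosomal protein genes 25 were then lower and 8 higher in KYSE30, and 48 lower and 0 higher in U138MG-labelled cells. Of the respiratory chain genes 34 were lower and 4 higher in KYSE30, and 36 lower and 10 higher in the other line. Without the fold limit, 27 ribosomal protein genes had a negative and 2 a positive difference, and 13 and 12 respiratory chain genes did. At an unadjusted p under 0.05 the counts of differences were 32 and 2 and 14 and 13. DESeq2 called 0 differences in both lists as well.

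**Figure D4:**
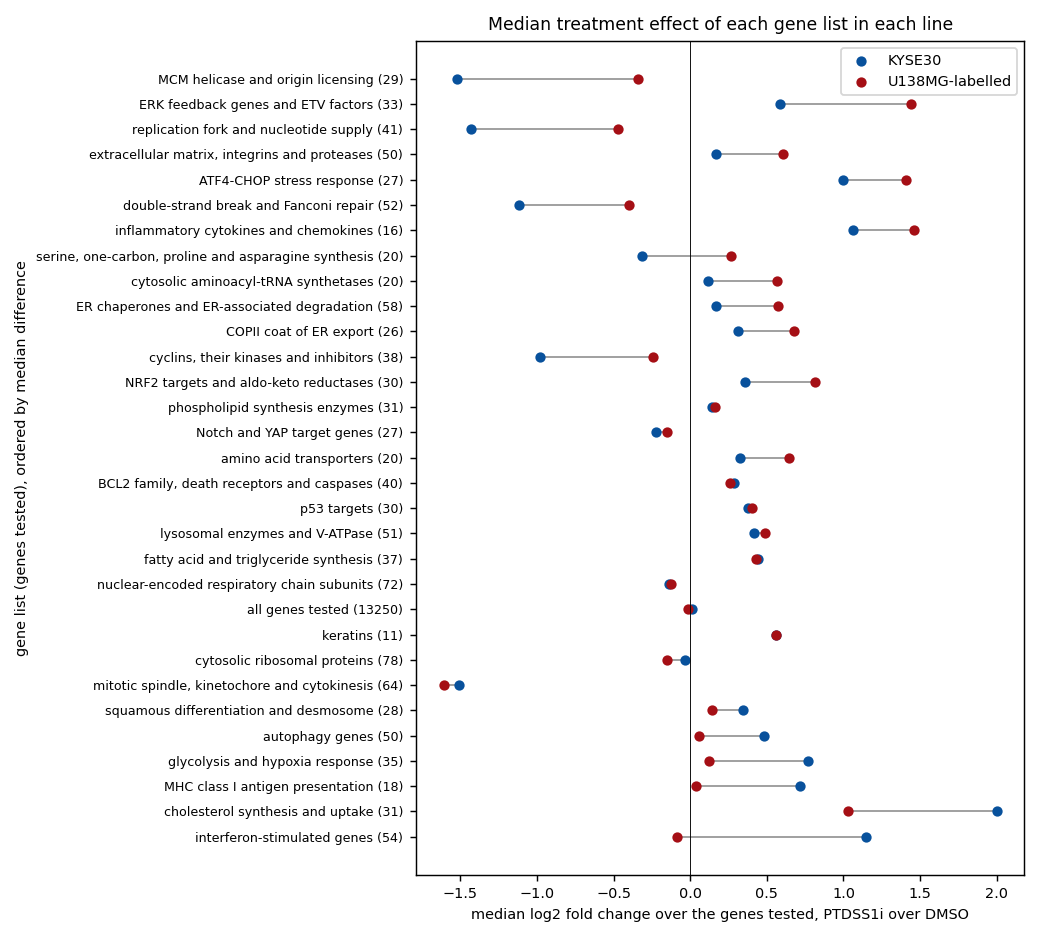
The median log2 fold change of PTDSS1i over DMSO is plotted for KYSE30 (blue) and U138MG-labelled libraries (red) in each gene list and over all genes tested, with the number of genes tested in parentheses and lists ordered by the median difference. Origin licensing, at -1.52 and -0.339, and interferon-stimulated genes, at 1.15 and -0.0873, stand at the ends.

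**Figure D5:**
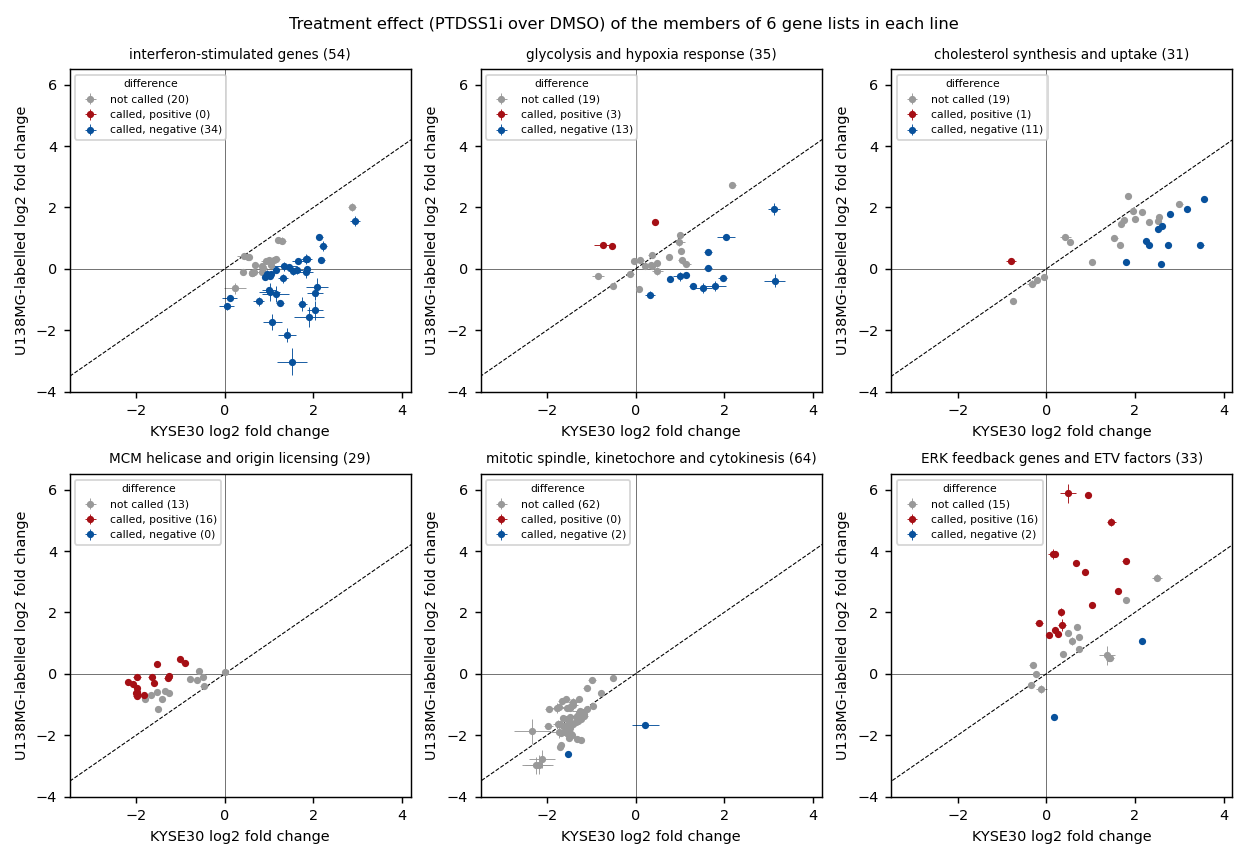
For 6 lists the log2 fold change of each member in KYSE30 (x axis) is plotted against that in U138MG-labelled libraries (y axis) with SE bars, blue or red where the difference was called; the dashed line marks equal effects. Mitotic genes lie along the line, interferon-stimulated genes below it, and origin licensing genes above it.

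The limit on the size of the difference ran through a dense range. On the positive side FAM83F, at 1.0007, and SNRPF, at 1.0012, lay just inside it and TWNK, at 0.99932, and THAP10, at 0.99916, just outside. On the negative side DHRS1, at -1.0001, and CHIC2, at -1.0008, lay just inside and NDUFA6-DT, at -0.99915, and ZNF780B, at -0.99885, just outside.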

How the data were processed

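Poly-A RNA-seq libraries of both lines were measured in 4 groups of 3. The deposited values are whole-number read counts per gene, 1 table for each line, made by the authors with Trimmomatic, STAR and featureCounts on hg38 according to the submitters' processing notes; versions and the use of strand in counting are not given in the sources used here. Tables were joined by Ensembl identifier without version, and 0 columns of per-sample values were left unused. Totals were 18800932 to 26514658 counts per library, of which the tested genes held between 98.0% and 98.4% of the joined counts, and replicate pairs differed beyond sampling noise (chi-square per degree of freedom 2.32 to 8.41).

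Genes with a mean of at least 10 counts in each group were fitted in 1 model over all 12 libraries with edgeR 4.0.16 (TMM scaling, robust quasi-likelihood fit, R 4.3.3), with Benjamini-Hochberg adjustment over all genes tested. A call needed an adjusted p under 0.05 and an absolute log2 value over 1. CPM are scaled by TMM, except those of the lineage markers and their sums, which are scaled by library total alone. Alternatives were other scalings, filters and limits, glmTreat, DESeq2 1.42.0, limma-voom (limma 3.58.1), a replicate block and leaving out each library. Same-numbered libraries deviated together in KYSE30 (correlations 0.214, 0.156 and 0.138). In the U138MG-labelled line those numbered 3 did (0.2), but those numbered 1 and 2 did not (-0.0502 and -0.0394). There DMSO 1 with PTDSS1i 2 gave 0.226 and DMSO 2 with PTDSS1i 1 gave 0.116. Numbers were therefore not taken as pairs in the main fit, while the replicate block joined libraries by number in both lines. The fit was tested on simulated data. Tables and plots used Python 3.11.15, pandas 2.3.3 and matplotlib 3.10.9.

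Members and lists were chosen with earlier results of these data known. Genes were named, at 5 CPM or more in 1 group and with no overlap of treatments where called, as the 8 opposite genes in each direction with the largest smaller change of both lines, the 6 shared and the 6 one-line genes in each direction, the 3 shared genes with the largest called difference in each direction, up to 4 members of each list with the largest called difference, the genes the study names, and those nearest the limit. All other genes given values were chosen after their values were seen, as were the histone genes. Some genes the rule names are not reported here.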

Additional observations from a re-analysis of the deposited data

Results flagged for a closer look

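The treatment effect differed between the lines, by the interaction term of edgeR's quasi-likelihood test, in 904 genes with a more positive and 1149 with a more negative effect in the U138MG-labelled libraries. Among the genes named for opposite effects, the log2 difference was 5.77 for CCN5, 4.46 for TCIM, 3.58 for COL4A1, 3.29 for MMP2, 2.90 for JPH1, 2.75 for BCAT1, 2.74 for MOCOS and 2.65 for HTR7, each lower with PTDSS1i in KYSE30 and higher in the other line. In the reverse direction it was -4.55 for IFI44L, -4.24 for IQCN, -4.0 for H4C8, -3.61 for ATP6V1C2, -3.48 for BST2, -3.32 for N4BP2L1, -3.29 for MUC16 and -3.19 for LASP1NB. Groups of 3 libraries are too small for a search for single outlying libraries.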

How the results depend on the processing

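Every count below is of genes called, with U for the U138MG-labelled libraries and K for KYSE30. Leaving out 1 library at a time gave 872 to 925 positive and 1097 to 1261 negative differences, 667 to 753 higher and 695 to 757 lower in K, 819 to 829 higher and 981 to 1053 lower in U, 239 to 253 shared higher and 216 to 236 shared lower, 12 to 17 opposite higher in U and 39 to 57 lower in U, 217 to 281 K-only higher and 223 to 257 lower, and 306 to 321 U-only higher and 458 to 528 lower. With the replicate number as a block, the counts were 907 positive and 1155 negative differences and 15 and 45 opposite genes, 469 of 471 shared, 58 of 60 opposite, 471 of 475 K-only and 803 of 809 U-only genes remained, and of the genes named only SNRPF left and THAP10 and NDUFA6-DT passed the limit.

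With the p-value taken against a log2 value of 1, K gave 375 higher and 405 lower, U 500 lower, shared 149 and 119, opposite 4 higher and 10 lower in U, differences 419 positive and 493 negative, K-only 111 and 80, and U-only 188 and 187. A minimum mean of 50 counts gave 566 lower in U, 20 opposite lower in U, 666 negative differences, 144 K-only higher and 247 U-only lower, with fewer genes tested. The filter of edgeR's filterByExpr, which tests genes present in a single group too, gave 1265 and 1143 in K, 1382 and 1991 in U, 393 and 350 shared, 34 and 101 opposite, 1769 negative differences, 395 K-only higher, and 494 and 841 U-only. A limit of 1.5-fold gave 1731 and 1772 in K, 1919 and 2206 in U, 692 and 650 shared, 98 and 184 opposite, 2220 positive and 2264 negative differences, 567 and 720 K-only, and 713 and 946 U-only. No fold limit gave 4623 and 4253 in K, 4713 and 4772 in U, 2548 and 2086 shared, 1024 and 1024 opposite, 4306 and 4175 differences, 826 and 871 K-only, and 881 and 1183 U-only.

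Of 3982 values of the log2 difference, for 161 named genes at 25 settings, 3863 kept their call or their lack of one. A further 59 lost the call, 60 gained it and 0 called differences reversed. Many of these genes were named for large changes and no overlap of treatments in these same data, which favours such stability. These counts follow the difference and not the class: with the p-values taken against a log2 value of 1, 14 of 60 opposite genes kept their class. Scaling by library size alone moved the median log2 change of all genes to -0.126 in K and -0.123 in U, and upper-quartile scaling to -0.0583 and -0.123. Genes at low counts in 1 line limit the comparison, and line, batch and table cannot be told apart at any depth.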
